A study of Mus musculus with 10 samples.

Results

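Cholesterol is made from acetyl-CoA in a long chain of enzyme steps. The first part of the chain, the mevalonate steps, yields farnesyl diphosphate, and the second part turns this through squalene and lanosterol into cholesterol. The genes were read here as 1 set of 33: 18 enzymes in pathway order, 6 genes of SREBP control, 3 of sterol movement inside the cell, and 6 of efflux, storage and the sterol receptors called LXR. The members were taken by gene symbol from textbook roles, with earlier results of these data known, and where a gene had several probe sets, the brightest on average stood for it. Of the 33, 30 had a probe set annotated to that gene alone, among 18194 genes tested, and Acat2, Soat1 and Nr1h2 were not analysed here.

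RNA came from the secondary palate of mouse embryos of strain C57B6 at embryonic day E14.5, with 1 Affymetrix array per sample. The mutant group (5 arrays) had the genotype Tgfbr2fl/fl;Wnt1-Cre, in which a Cre recombinase driven by Wnt1, active in the neural crest, removes the type II TGF-beta receptor, and palate cells of other origin keep the gene. The control group (5 arrays) had the genotype Tgfbr2fl/fl without Cre, so both groups carry the floxed alleles, and its titles call it wildtype. The labels give the sex as not determined and do not say whether each array is a separate embryo, so p-values measure only the spread between these samples.

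As background, cells sense sterols in the membrane of the endoplasmic reticulum. When sterols are scarce, Scap carries the precursor of the transcription factor SREBP-2, encoded by Srebf2, to the Golgi, where the proteases encoded by Mbtps1 and Mbtps2 release its active part, which switches on the genes of synthesis. When sterols are plentiful, the Insig proteins hold Scap back, and LXR switches on the export pumps. Cholesterol also modifies Hedgehog proteins, which pattern the face, and loss of late enzymes such as Dhcr7 or Sc5d, or of both Insig genes, is known to cause cleft palate in mice.

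The arrays were of like brightness, with medians of 6.4 or 6.5 on the log2 scale. Control replicate 1 stood apart: its median correlation with the other arrays was 0.987 over all genes, against 0.992 to 0.994 for each of the others. The 7 markers of palate mesenchyme had group means between 8.46 (Msx1, mutant) and 14.2 (Col1a2, mutant), and none was called. Tgfbr2 differed by 0.08 on the log2 scale (95% confidence interval -0.06 to 0.22, limma adjusted p = 0.482), and whether its probe set reads the deleted part is not known here, so it does not check the labels. Of 18194 genes, 5.36% were called lower and 2.90% higher in mutants by limma at an adjusted p under 0.05, and for 4.93% all 5 mutant arrays lay below all 5 controls, for 1.82% above.

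Transcripts of most enzymes measured were lower in mutant palate. Of 17 enzymes measured, 11 fell, 0 rose and 6 were not called (limma, adjusted p under 0.05), against 5.36% called lower over all genes. All 17 had a negative log2 fold change, as did 48.6% of all genes, and the median was -0.36 against 0.00 over all genes. At an unadjusted p under 0.05 stood 17 of 17, against 4581 of the 18194 genes. The decreases were small, between 1.18-fold and 1.49-fold for the 11 that were called. Of the other 13 members, 1 fell (Insig1), 1 rose (Abca1) and 11 were not called, with a median of -0.06. Over all genes 16691 of 18194 were not called, and the contrast between the enzymes and the other members was not tested. In whole tissue, fewer cells of a type and less RNA per cell cannot be told apart.

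**Figure D1:**
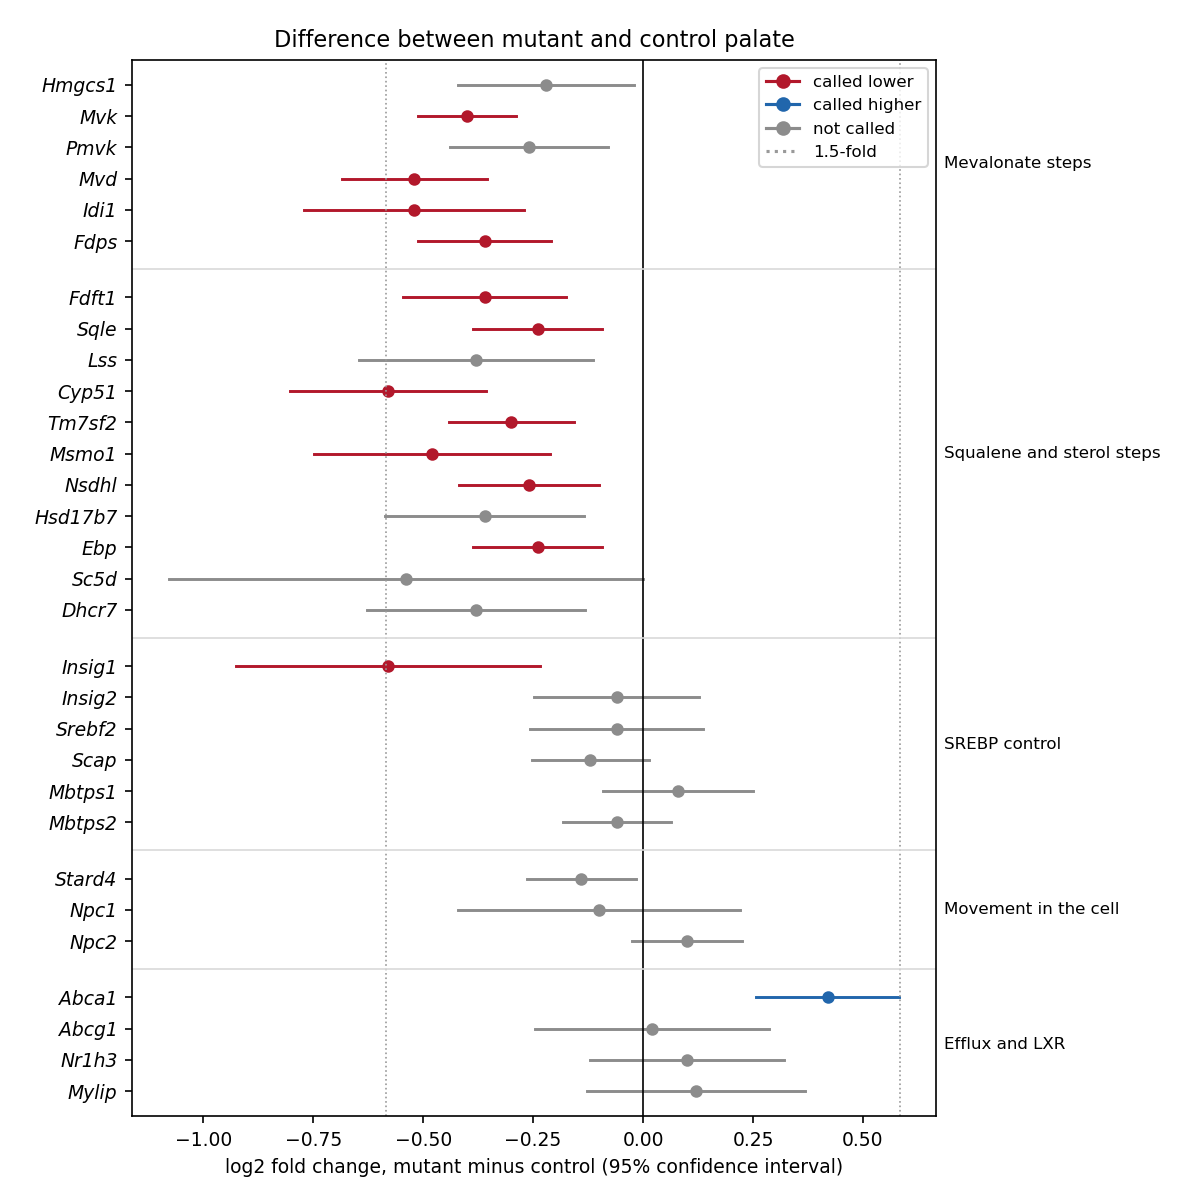
Log2 fold change of each of the 30 measured genes, mutant minus control, with its 95% confidence interval from limma (5 arrays per group). Red marks genes called lower, blue the 1 called higher and grey those not called; dotted lines mark a 1.5-fold change. All 17 enzymes lie left of 0, and Abca1 is the 1 gene called to the right.

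The measured mevalonate steps run from Hmgcs1, which makes HMG-CoA, to Fdps, which makes farnesyl diphosphate. Of the 6 measured, 4 fell and 2 were not called, against 5.36% called lower over all genes. The median difference was -0.38 (log2), and all 6 were negative. Mvk encodes mevalonate kinase. Its log2 value was 7.7 in mutant replicate 4 and 7.8 in the other 4 mutants, and 8.1 in control replicate 2 and 8.2 in the other 4 controls. The groups were thus 0.3 apart at their nearest, although the deposited values move in steps of 0.1. Mvk was 1.32-fold lower, at 7.78 ± 0.04 in mutants against 8.18 ± 0.04 in controls (log2, SD, n = 5 each; limma adjusted p = 0.00160). Its other probe set gave -0.22 and was not called in a fit of all probe sets (adjusted p = 0.120).

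Mvd encodes the decarboxylase that makes isopentenyl diphosphate, the building block of all later steps. It stood at 7.4, 7.5, 7.3, 7.3 and 7.4 in mutant replicates 1 to 5, and at 8.0, 7.7, 8.0, 8.0 and 7.8 in control replicates 1 to 5. No mutant array reached a control array. Mvd was 1.43-fold lower (log2 fold change -0.52, SE 0.08, limma adjusted p = 0.00286), and its second probe set gave -0.50 and was also called in a fit of all probe sets (adjusted p = 0.00885).

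Idi1 encodes the isomerase of isopentenyl diphosphate. Its mutant arrays stood at 9.1, 8.9, 9.2, 9.3 and 9.0 and its controls at 9.5, 9.5, 9.7 and 9.4 in replicates 2 to 5 and at 10 in replicate 1. Control replicate 1 was the highest, and the groups were 0.1 apart at their nearest. Idi1 was 1.43-fold lower (-0.52, SE 0.12, limma adjusted p = 0.0200), but the call was lost without mutant replicate 2 (0.0509) or mutant replicate 5 (0.0501). Its other probe set gave -0.42 and was not called (adjusted p = 0.222 over all probe sets). Fdps stood at 10.2 to 10.4 in mutants and 10.5 to 10.8 in controls and was 1.28-fold lower (-0.36, SE 0.07, limma adjusted p = 0.0116). Its other probe set was dim, with means of 2.78 and 3.02, and was not called (-0.24, adjusted p = 0.0712 over all probe sets).

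Hmgcs1 and Pmvk, which encodes phosphomevalonate kinase, were not called. Hmgcs1 stood at 11.4 to 11.6 in mutants and at 12.0, 11.5, 11.6, 11.8 and 11.6 in controls, so the arrays overlapped (-0.22, interval -0.42 to -0.02, limma adjusted p = 0.162). Its 5 probe sets gave -0.08 to -0.28, and 1 of the 5 was called in a fit of all probe sets (-0.28, adjusted p = 0.0492). Pmvk stood at 7.8 to 8.2 in mutants and 8.1 to 8.4 in controls (-0.26, interval -0.44 to -0.08, limma adjusted p = 0.0751). The intervals of these 2 genes do not reach a 1.5-fold change.

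Hmgcs1 is the first measured enzyme in pathway order, and Mvk and Mvd had the lowest adjusted p of the members. Their promoters are therefore shown. They are RefSeq sequences of the build GRCm38.p6, 250 bases before to 50 after the annotated start, 5′ to 3′ on the gene's strand: Hmgcs1 at chr13:119690101-119690400 (plus strand), Mvk at chr5:114444019-114444318 (plus) and Mvd at chr8:122443373-122443672 (minus). Capitals mark CCAAT, the box bound by NF-Y, a partner of SREBP, on either strand, and in Hmgcs1 also TCACCCCAC.
Hmgcs1: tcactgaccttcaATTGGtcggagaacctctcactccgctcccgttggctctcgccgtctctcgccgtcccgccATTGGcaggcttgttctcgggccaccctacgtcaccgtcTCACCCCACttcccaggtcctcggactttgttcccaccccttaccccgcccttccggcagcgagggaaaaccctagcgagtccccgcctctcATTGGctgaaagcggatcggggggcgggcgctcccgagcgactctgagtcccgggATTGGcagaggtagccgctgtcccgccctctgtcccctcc
Mvk: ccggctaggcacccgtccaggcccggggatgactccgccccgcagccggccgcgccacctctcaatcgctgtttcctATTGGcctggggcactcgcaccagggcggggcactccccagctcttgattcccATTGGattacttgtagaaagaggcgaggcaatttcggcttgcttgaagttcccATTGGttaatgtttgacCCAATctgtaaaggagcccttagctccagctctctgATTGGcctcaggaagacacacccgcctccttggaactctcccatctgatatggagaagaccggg
Mvd: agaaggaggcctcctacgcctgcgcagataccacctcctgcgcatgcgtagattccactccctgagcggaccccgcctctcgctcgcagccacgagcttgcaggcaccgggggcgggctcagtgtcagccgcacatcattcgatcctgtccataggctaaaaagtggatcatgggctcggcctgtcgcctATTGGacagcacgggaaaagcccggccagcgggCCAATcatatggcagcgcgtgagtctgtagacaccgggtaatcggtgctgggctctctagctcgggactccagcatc

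Of the 33 members, 27 had at least 1 such promoter, 34 promoters in all. These were searched on both strands for TCACNCCAC, a core of the sterol regulatory element, CCAAT, and GGGCGG, a box bound by Sp1, and no match overlapped a match of another motif. TCACNCCAC was in 1 of the 34, that of Hmgcs1, at position -137 from the start, and in 1.24% of all 32851 promoters of this length. CCAAT was in 14 of 18 promoters of the enzymes (77.8%), 6 of 16 of the other members (37.5%) and 37.4% of all. GGGCGG was in 15 of 18 (83.3%), 11 of 16 (68.8%) and 35.7%. Promoters of the genes tested on the array held CCAAT in 37.4% and GGGCGG in 52.3%, and those of all genes called lower in 48.6% and 60.6%. All 9 members called lower that had a promoter in the table (Mvk, Mvd, Idi1, Cyp51, Tm7sf2, Msmo1, Nsdhl, Ebp and Insig1) held both boxes, and none held TCACNCCAC. A promoter with both boxes was also found for uncalled Hmgcs1, Lss, Hsd17b7, Sc5d, Dhcr7, Srebf2, Npc2 and Mylip. None was found for uncalled Pmvk, Insig2, Scap, Mbtps1, Mbtps2 and Nr1h3. The share of all promoters that hold both boxes was not counted, so these counts of both boxes have no background. Other forms of the sterol regulatory element were not searched. These matches describe letters in a window and not bound sites.

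The squalene and sterol steps gave a like picture, with 7 of 11 genes lower (5.36% over all genes), 0 higher and 4 not called. Their median was -0.36, and 11 of 11 were negative. Cyp51 encodes the demethylase that acts on lanosterol. It stood at 8.6, 8.6, 8.8, 8.9 and 8.7 in mutant replicates 1 to 5 and at 9.6, 9.1, 9.3, 9.4 and 9.1 in control replicates 1 to 5. The groups did not overlap, and control replicate 1 was the highest array. Cyp51 was 1.49-fold lower, at 8.72 ± 0.13 against 9.30 ± 0.21 (log2, SD, n = 5 each; limma adjusted p = 0.00766). All 3 of its probe sets were called lower in a fit of all probe sets, at -0.58, -0.46 and -0.46. Its promoter, at chr5:4104648-4104947 on the minus strand, is printed in the same way, with its CCAAT box in capitals.
Cyp51: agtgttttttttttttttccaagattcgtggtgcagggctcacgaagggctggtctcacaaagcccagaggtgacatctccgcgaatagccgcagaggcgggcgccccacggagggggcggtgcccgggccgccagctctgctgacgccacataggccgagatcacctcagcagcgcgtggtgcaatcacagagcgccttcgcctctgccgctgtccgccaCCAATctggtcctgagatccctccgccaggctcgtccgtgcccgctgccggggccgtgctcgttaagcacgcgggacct

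Tm7sf2, which encodes a sterol reductase of the next step, stood at 7.6 or 7.7 in mutants and at 8.0, 7.8, 7.9, 8.1 and 7.9 in controls. It was 1.23-fold lower (-0.30, SE 0.06, limma adjusted p = 0.0189), and the groups were 1 step of 0.1 apart. Msmo1, Nsdhl and Hsd17b7 encode the enzymes that strip methyl groups from the sterol ring. Msmo1 stood at 9.0 or 9.2 in mutants and at 10.1, 9.4, 9.5, 9.6 and 9.4 in controls. Control replicate 1 was again the highest, by 0.5, and no mutant reached a control. Msmo1 was 1.39-fold lower (-0.48, SE 0.12, limma adjusted p = 0.0362), and without control replicate 1 the difference was -0.355 (adjusted p = 0.0138), while without each mutant or control replicate 3 or 4 the call was lost (0.0587 to 0.0827). Its other probe set gave -0.28 and was not called (adjusted p = 0.172 over all probe sets).

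Fdft1, Sqle, Nsdhl and Ebp fell with arrays that met at the border of the groups. Fdft1, squalene synthase, stood at 9.9 to 10.1 in mutants and 10.1 to 10.6 in controls (-0.36, SE 0.08, limma adjusted p = 0.0265). Its second brightest probe set separated the groups but was not called (-0.34, adjusted p = 0.053 over all probe sets). Its 2 dim ones, with group means of 5.34 to 5.62, gave 0.18 and 0.04 and were not called. Sqle, squalene epoxidase, stood at 10.2 to 10.4 against 10.4 to 10.6 and Nsdhl at 9.1 to 9.3 against 9.3 to 9.6. Ebp, a sterol isomerase, stood at 8.4 to 8.7 against 8.7 to 8.9. These 3 differed by -0.24, -0.26 and -0.24 (SE 0.07 each; limma adjusted p = 0.0477, 0.0481 and 0.0477), and each call was lost when any of 9 arrays was left out. That of Fdft1 was lost without any of 6 (0.0511 to 0.0648).

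Nsdhl and Ebp lie on chromosome X. Eif2s3y, a Y-linked gene, stood at 9.0 to 9.3 in mutant replicates 1 to 4 and control replicates 1 and 4, and at 3.2 to 5.1 in the other arrays, so the groups were not balanced for it. With Eif2s3y as a covariate in limma the differences of Nsdhl and Ebp were -0.29 and -0.22 and were not called (adjusted p = 0.0818 and 0.126). Sqle, not X-linked, lost its call in the same fit (-0.26, adjusted p = 0.0905). The same covariate gave calls for Lss (-0.55, adjusted p = 0.0180) and Hmgcs1 (-0.34, adjusted p = 0.0482).

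Lss, Hsd17b7, Sc5d and Dhcr7 were not called, and their 95% intervals reach a 1.5-fold decrease. Lss, lanosterol synthase, stood at 7.7 to 7.9 in mutants and at 8.6, 7.9, 8.1, 8.3 and 7.9 in controls (-0.38, interval -0.65 to -0.11, limma adjusted p = 0.0783). Hsd17b7 stood at 8.0 to 8.4 against 8.4 to 8.8 (-0.36, limma adjusted p = 0.0528), and without control replicate 1 it was called (-0.405, adjusted p = 0.0355). Dhcr7 encodes the last reductase, whose human counterpart is mutated in Smith-Lemli-Opitz syndrome. It stood at 8.6, 8.3, 8.3, 8.4 and 8.7 in mutants and at 9.2, 8.7, 8.7, 8.9 and 8.7 in controls (-0.38, interval -0.63 to -0.13, limma adjusted p = 0.0618).

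Sc5d, a sterol desaturase, varied most within groups among the measured members. It stood at 7.7, 8.2, 8.6, 8.6 and 8.7 in mutants and at 9.5, 8.1, 9.0, 9.1 and 8.8 in controls, so control replicate 2 lay below 4 of the 5 mutants. Its difference of -0.54 had an SE of 0.25 (limma adjusted p = 0.198). Another Sc5d probe set, with means of 7.42 and 7.82, separated the groups but was not called (-0.40, adjusted p = 0.0669 over all probe sets). With the mean of its 3 probe sets Sc5d was called lower (-0.37, limma adjusted p = 0.0371). The same setting ended the calls of Idi1 (-0.47, adjusted p = 0.0724), Msmo1 (-0.38, adjusted p = 0.0507) and Fdft1, whose difference shrank from -0.36 to -0.12 (adjusted p = 0.195).

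**Figure D2:**
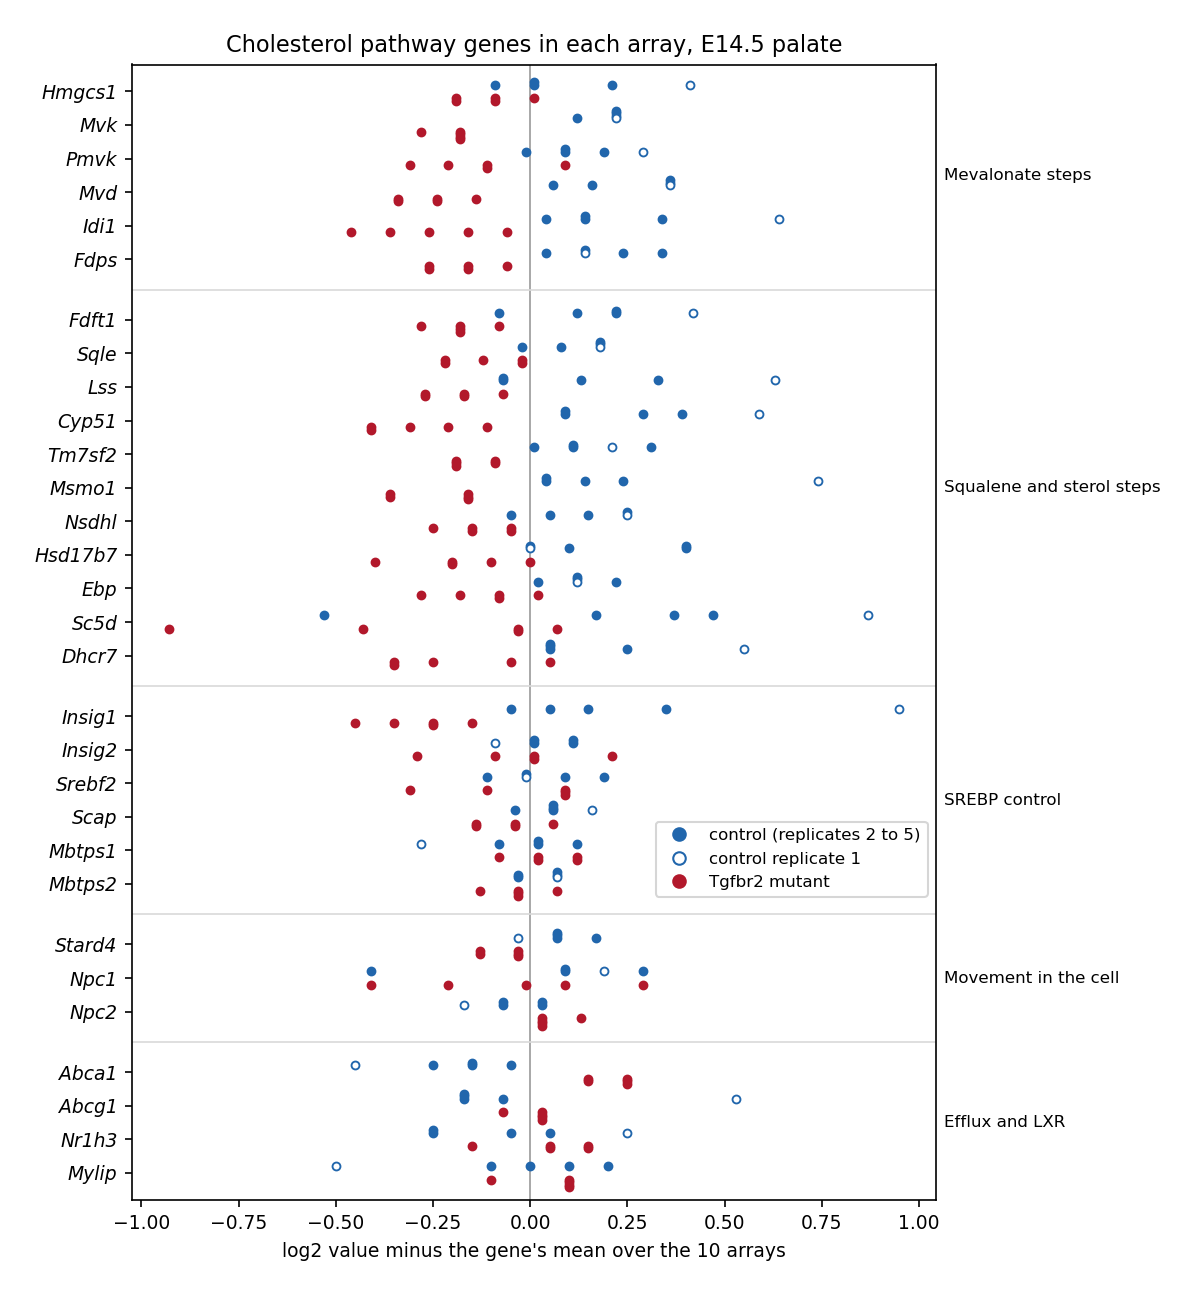
Log2 value of each measured gene in each array, minus that gene's mean over the 10 arrays, with mutants in red, controls in blue and control replicate 1 as an open circle; tied arrays are stacked. For 7 of the 17 enzymes every mutant lies left of every control, and the open circle is the highest control, alone or tied, for 13 of the 17.

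For 7 enzymes (Mvk, Mvd, Idi1, Fdps, Cyp51, Tm7sf2 and Msmo1) all 5 mutants lay below all 5 controls, against 4.93% of all genes. Leaving out a control cannot undo such a separation, and without control replicate 1 the count stayed at 7. Control replicate 1 was the highest control alone for 9 of the 17 enzymes and tied for 4 more. Without it all 17 log2 fold changes were still negative, and 9 enzymes were called lower (4 mevalonate and 5 squalene and sterol steps), Hsd17b7 among them. Over all genes 1107 of 18194 were then called lower. Leaving out 1 array moved the calls over all genes too, from 975 lower to between 457 and 1107. The count of members called lower was 12 with all arrays and 10 without control replicate 1, 2 or 5. It was 7 without mutant replicate 2 or 4, 6 without mutant replicate 1 or 3 or control replicate 3 or 4, and 5 without mutant replicate 5. These counts include Hsd17b7 without control replicate 1 and Pmvk (-0.315, adjusted p = 0.0424) without mutant replicate 2, which were not called with all arrays. Mvk, Mvd, Fdps, Cyp51 and Tm7sf2 were called whichever array was dropped, and 6 other enzymes lost their call at least once.

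The 17 enzymes had 38 probe sets, of which 36 had a negative and 2 a positive difference, the 2 being the dim ones of Fdft1. In the fit of all probe sets 12 of the 38 were called lower and 0 higher. Of the 21 that were not used to represent a gene, 19 had a negative difference and 4 were called lower, with a median of -0.26. The share called over all probe sets in that fit is not given here, so these counts of calls have no background. The 27 probe sets of the other 13 genes divided into 14 negative and 13 positive, with 0 called lower and 1 higher. The single probe sets of Insig1, Sqle, Nsdhl and Ebp were not called in that fit (limma adjusted p = 0.0592 for Insig1 and 0.068 for each of the others).

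**Figure D3:**
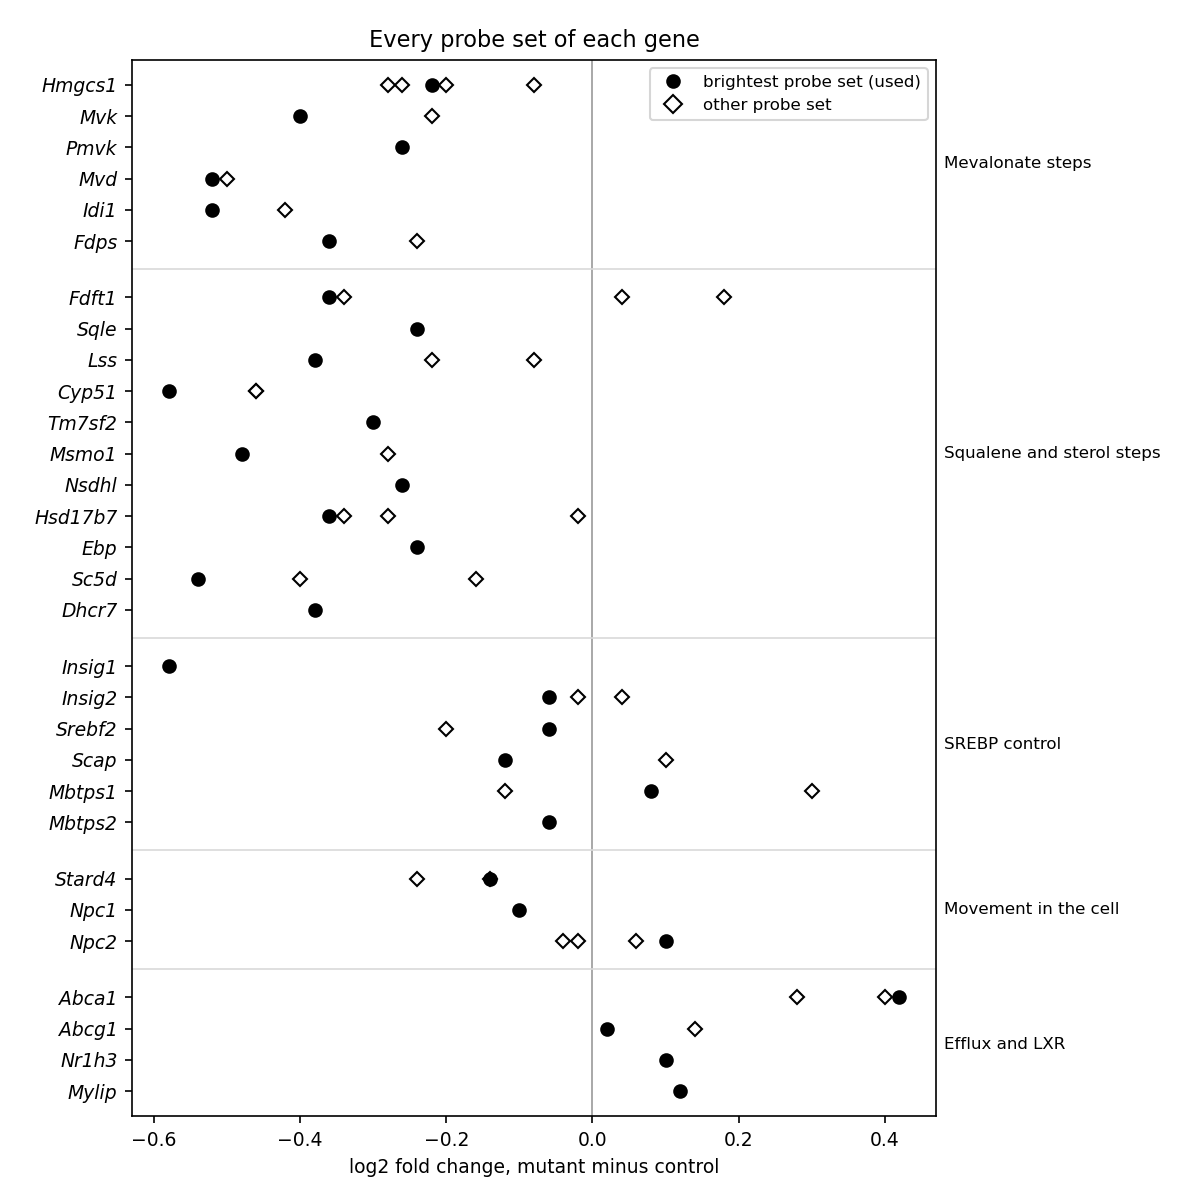
Log2 fold change, mutant minus control, of every probe set of each measured gene; filled circles are the brightest probe set, used to represent the gene, and open diamonds the others. Of 38 enzyme probe sets 36 lie left of 0, while the 27 of the other genes lie on both sides.

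Among the 6 genes of SREBP control, Insig1 fell and the other 5 were not called, against 5.36% called lower over all genes. Insig1 is itself a target of SREBP-2, and its protein holds Scap in the endoplasmic reticulum. It stood at 7.7, 7.6, 7.5, 7.7 and 7.8 in mutant replicates 1 to 5 and at 8.9, 8.0, 8.1, 8.3 and 7.9 in control replicates 1 to 5. The groups did not overlap, but they were only 0.1 apart at their nearest, and control replicate 1 lay 0.6 above the next control. Insig1 was 1.49-fold lower, at 7.66 ± 0.11 against 8.24 ± 0.40 (log2, SD, n = 5 each; limma adjusted p = 0.0435). Without control replicate 1 the difference was -0.415 and still called (adjusted p = 0.0182), and without any mutant or control replicate 3 or 4 the call was lost (0.0689 to 0.107). Insig1 also lost its call with quantile normalization (limma adjusted p = 0.0539), median centring (0.0575) and the replicate block (0.0722). Insig1 kept it with the mean of probe sets, the brighter 60% of genes, trend with robust fitting, array weights and Eif2s3y as a covariate. Its promoter, at chr5:28071162-28071461 on the plus strand, has 1 CCAAT box, in capitals, farther from the start than those of Mvd.
Insig1: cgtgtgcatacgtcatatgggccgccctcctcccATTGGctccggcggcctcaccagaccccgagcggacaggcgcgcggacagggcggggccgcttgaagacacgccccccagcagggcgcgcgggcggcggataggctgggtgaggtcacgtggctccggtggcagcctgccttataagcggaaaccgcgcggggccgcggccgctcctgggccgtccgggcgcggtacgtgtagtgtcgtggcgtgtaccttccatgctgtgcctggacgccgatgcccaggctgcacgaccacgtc

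The transcription factor gene and the rest of its machinery showed small differences. Srebf2 stood at 9.2, 9.2, 8.8, 9.0 and 9.2 in mutants and at 9.1, 9.0, 9.3, 9.2 and 9.1 in controls, with overlapping groups (-0.06, interval -0.26 to 0.14, limma adjusted p = 0.723). Its other probe set gave -0.20 and was not called (adjusted p = 0.196 over all probe sets). Insig2, the second Insig gene, stood at 8.6 to 9.1 against 8.8 to 9.0 (-0.06, interval -0.25 to 0.13, limma adjusted p = 0.71). Scap (-0.12, interval -0.25 to 0.01), Mbtps1 (0.08, -0.09 to 0.25) and Mbtps2 (-0.06, -0.18 to 0.06) were not called either, and their arrays overlapped. For all 5 the interval stops short of a 1.5-fold change. The difference between Insig1 and these genes was not tested.

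None of the 3 genes of sterol movement was called by limma, and 1, Stard4, had an unadjusted p under 0.05. Stard4, which carries sterol between membranes, stood at 9.2 or 9.3 in mutants and at 9.3, 9.4, 9.5, 9.4 and 9.4 in controls, the groups meeting at 9.3 (-0.14, interval -0.26 to -0.02, limma adjusted p = 0.146). Its other 2 probe sets gave -0.24 and -0.14. Npc1 and Npc2 encode the proteins that hand cholesterol out of the lysosome. Npc1 spread from 6.7 to 7.4 in both groups (-0.10, interval -0.42 to 0.22), and Npc2 stood at 12.3 or 12.4 in mutants and 12.1 to 12.3 in controls (0.10, interval -0.03 to 0.23; limma adjusted p = 0.718 and 0.306).

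Abca1 was the only one of the 30 members that rose, against 2.90% called higher over all genes. It encodes the pump that passes cholesterol to apolipoproteins, and it is induced by LXR. It stood at 11.1, 11.0, 11.0, 11.1 and 11.1 in mutant replicates 1 to 5 and at 10.4, 10.7, 10.8, 10.6 and 10.7 in control replicates 1 to 5. Every mutant lay above every control (1.82% of all genes did so), by 0.2 at the nearest. Abca1 was 1.34-fold higher, at 11.06 ± 0.05 against 10.64 ± 0.15 (log2, SD, n = 5 each; limma adjusted p = 0.00810), and it was called whichever array was dropped. Its other 2 probe sets gave 0.28 and 0.40 and were not called (adjusted p = 0.185 and 0.180 over all probe sets), and with the mean of all 3 in place of the brightest the gene was not called (0.37, adjusted p = 0.0637). Its promoter, at chr4:53159846-53160145 on the minus strand, is shown for contrast and holds no CCAAT and 2 matches of GGGCGG.
Abca1: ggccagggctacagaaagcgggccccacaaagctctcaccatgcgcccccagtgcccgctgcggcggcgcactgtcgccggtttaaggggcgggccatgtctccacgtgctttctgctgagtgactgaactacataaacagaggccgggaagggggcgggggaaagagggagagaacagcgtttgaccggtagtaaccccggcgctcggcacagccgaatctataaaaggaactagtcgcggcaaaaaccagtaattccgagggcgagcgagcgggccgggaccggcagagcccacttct

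Other genes of efflux and LXR were not called. Abcg1, a second cholesterol pump, stood at 8.3 or 8.4 in mutants and at 8.9, 8.3, 8.2, 8.2 and 8.2 in controls (0.02, interval -0.25 to 0.29, limma adjusted p = 0.927). Control replicate 1 alone was high, and without it the difference was 0.155 (adjusted p = 0.0713). Nr1h3, which encodes LXR alpha, was dim, at 4.9 to 5.2 against 4.8 to 5.3 (0.10, limma adjusted p = 0.577). Mylip, an LXR target whose protein marks lipoprotein receptors for degradation, stood at 10.8 to 11.0 in mutants and at 10.4, 10.8, 11.1, 11.0 and 10.9 in controls (0.12, limma adjusted p = 0.55).

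Neighbouring pathways showed few calls in the same fit. Of 15 genes of fatty acid synthesis, which SREBP proteins also control, 0 were called by limma (5 at an unadjusted p under 0.05), with a median of -0.10. Fads1, a fatty acid desaturase, had the smallest p of them (-0.26, adjusted p = 0.0706). Of 15 genes that use farnesyl diphosphate for prenyl groups, dolichol and ubiquinone, 1 fell, Pdss2, which builds the ubiquinone tail (-0.30, SE 0.06, limma adjusted p = 0.0169), and the median was -0.04, with 4 of the 15 at an unadjusted p under 0.05. Of 14 further genes of SREBP transport and turnover, 0 were called (0 at an unadjusted p under 0.05), with a median of 0.02, and Erlin2 had the smallest p (0.10, limma adjusted p = 0.274). Of 24 further genes of sterol handling, Tmem97, a sterol-regulated membrane protein, fell (-0.32, SE 0.07, limma adjusted p = 0.0189) and Osbpl8, which encodes a lipid transfer protein, rose (0.32, SE 0.08, limma adjusted p = 0.0362). The median of these 24 was 0.00, and 11 had an unadjusted p under 0.05. Shares of 5.36% lower and 2.90% higher over all genes are the background of the calls, and 4581 of 18194 that of the counts at an unadjusted p.

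Genes of dividing cells moved with the enzymes. All 7 proliferation markers measured fell, Bub1b, Birc5 and Mcm5 by 0.54, 0.56 and 0.44 on the log2 scale (limma adjusted p = 0.000879, 0.00103 and 0.00119). Their summed linear level was 13600 to 15100 in mutants and 18300 to 19900 in controls. The median deviation of the enzymes from their means over all arrays was -0.11 to -0.22 in mutants and 0.05 to 0.36 in controls, and that of the proliferation markers -0.16 to -0.30 and 0.16 to 0.30. Their part in the result was not tested.

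Of 8 skeletal muscle markers 6 fell, among them Myf5, Actn2 and Tnnt1 (-1.86, -1.98 and -1.74; limma adjusted p = 0.00258, 0.0131 and 0.0160), with a summed level of 442 to 2830 in mutants and 2560 to 7410 in controls. The median deviation of the muscle markers was -1.50 to 0.54 in mutants, the 0.54 in replicate 4, and 0.50 to 1.75 in controls. Their part in the result was not tested. Of 8 epithelial markers 2 rose, Krt4 and Krt13 (0.92 and 1.88; limma adjusted p = 0.00907 and 0.0147), and the sums overlapped (12200 to 15900 against 9960 to 16000). Control replicate 1 gave the 16000, and the other controls, at 9960 to 12000, lay below every mutant. The part of epithelium in the result was not tested. None of 8 macrophage, 6 endothelial, 4 red blood cell or 7 mesenchyme markers was called by limma, and 1, 0, 1 and 2 of them had an unadjusted p under 0.05. The smallest p was that of C1qa, Esam, Hbb-y and Msx1 (0.38, -0.14, -0.30 and -0.84; adjusted p = 0.0844, 0.340, 0.194 and 0.147). The macrophage sum, which bears on LXR targets, was 1930 to 2260 in mutants and 1720 to 2420 in controls. The endothelial sum was 1770 to 2030 against 1600 to 2150, and that of red blood cells 8060 to 11300 against 9820 to 14800. Mesenchyme markers summed to 39000 to 43200 against 26900 to 39300, and control replicate 1 gave the 26900.

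**Figure D4:**
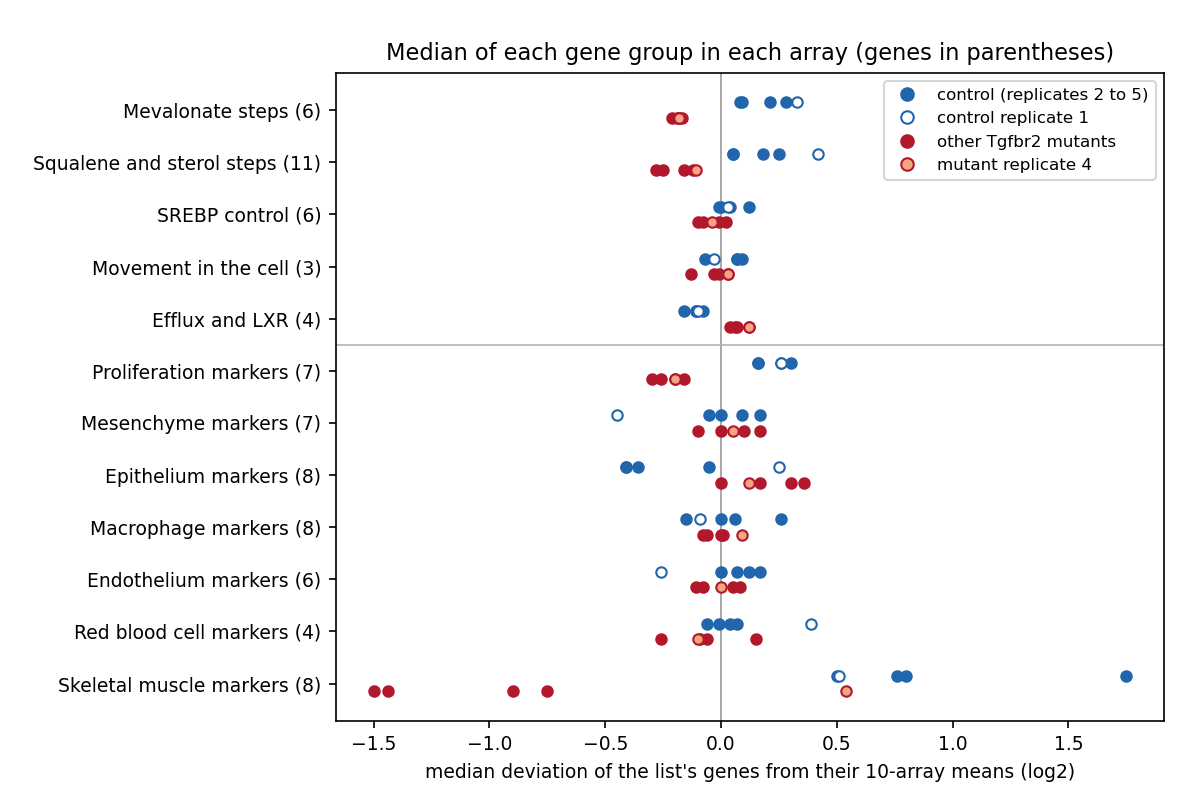
Median deviation (log2) of each gene group in each array from the genes' means over 10 arrays, with the number of genes in parentheses; open circles are control replicate 1, light circles mutant replicate 4, and coinciding points overlap. Mevalonate steps (-0.17 to -0.21 in mutants, 0.08 to 0.33 in controls), squalene and sterol steps (-0.11 to -0.28 and 0.05 to 0.42) and proliferation markers separate the groups. Efflux and LXR genes (0.04 to 0.12 and -0.16 to -0.08) separate them in the other direction, and SREBP control (-0.10 to 0.02 and -0.01 to 0.12) does not.

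The control arrays kept a like order in both parts of the pathway. The mevalonate and the later steps gave the highest control medians in replicate 1 (0.33 and 0.42), then in replicates 4 (0.28 and 0.25) and 3 (0.21 and 0.18), and the lowest in replicates 2 and 5 (0.05 to 0.09). Such an order was not particular to the enzymes. The proliferation markers were also lowest in control replicates 2 and 5 (0.16 each, against 0.26, 0.26 and 0.30 in replicates 1, 3 and 4). Skeletal muscle markers went otherwise and were highest in replicate 5 (1.75). Mutant medians of the enzymes were closer together, at -0.17 to -0.21 for the mevalonate steps and -0.11 to -0.28 for the later ones. The median of the 4 genes of efflux and LXR lay the other way, at 0.04 to 0.12 in mutants and -0.08 to -0.16 in controls. Only Abca1 among them was called, and the 95% intervals of Abcg1, Nr1h3 and Mylip include 0. In control replicate 1 these genes were split: among controls, Abca1 and Mylip were lowest there and Abcg1 and Nr1h3 highest.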

How the data were processed

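The series comprises 10 Affymetrix mouse arrays, 5 per group. The deposited log2 values were made by the authors with RMA, per the submitters' processing notes; no source used here gives a version, filter or batch. They carry 1 decimal, so small differences are coarse and ties common. All sample columns were used.

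Of 45101 probe sets, the platform annotation named 1 gene for 34958, more than 1 for 932 and no gene for 9211; symbols were updated by Entrez ID through a RefSeq table (GRCm38.p6, 34754 found). Each of 18194 genes was represented by its brightest probe set. Mutant minus control was fitted over all genes with limma 3.58.1 in R 4.3.3 (lmFit, eBayes, no filter or covariate), with two-sided p-values and Benjamini-Hochberg adjustment over all genes; "called" means an adjusted p under 0.05. The fit was also run on simulated data with independent noise and no deviant array. That run does not cover an array like control replicate 1. Promoters came from RefSeq.

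The members and all lists were chosen with earlier results of these data known. Every member is named, and from each further list the called genes, at most 3 and by p, or the gene of lowest p where none was called. Alternatives were the mean of probe sets, robust fitting with an intensity trend, the brighter 60% of genes, median centring, quantile normalization, array weights, a replicate block, Eif2s3y as a covariate, and leaving out each array.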

Additional observations from a re-analysis of the deposited data

Results flagged for a closer look

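In 60 groups of 5 arrays (30 genes, 2 groups each), 8 had 1 array far from its group, at a gap above Dixon's 95% critical value. Chance flags about 1 group in 20 for continuous values, but these values move in steps of 0.1, so that rate does not apply here. Control replicate 1 was high for Msmo1, at 10.1 against 9.4 to 9.6 in the other controls, and for Abcg1, at 8.9 against 8.2 to 8.3. Control replicate 5 was low for Npc1, at 6.7 against 7.2 to 7.4. The other 5 are small gaps between otherwise tied arrays: Mvk at 7.7 in mutant replicate 4 (7.8 in the others) and 8.1 in control replicate 2 (8.2), Npc2 at 12.4 in mutant replicate 2 (12.3), Abcg1 at 8.3 in mutant replicate 5 (8.4) and Mylip at 10.8 in mutant replicate 2 (11.0). All of these except Mylip equal 1 rounding step of 0.1.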

How the results depend on the processing

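The count of members called lower, 12, was 8 to 14 under the mean of probe sets, the brighter 60% of genes, trend with robust fitting, quantile normalization, median centring, array weights and Eif2s3y as a covariate, and 5 to 10 when arrays were left out in turn. Of the original 12, 8 to 12 and 5 to 10 kept their call, and up to 2 others gained one. The 1 called higher stayed 1 except with the mean of probe sets (0). Over all genes, 975 lower and 528 higher became 457 to 1107 and 186 to 691 when arrays were left out. With array weights 1333 were lower and 907 higher. Replicate numbers did not pair the arrays: deviations of same-numbered arrays correlated at -0.0994 to 0.105. With the replicate block 6 members (5 of the 12, and Hsd17b7) and 365 genes were lower and 167 genes higher. Of the members' own differences the sign turned, uncalled in each case, for Insig2 without mutant replicate 2 (0.005) and with another probe set (0.04), Srebf2 without mutant replicate 3 (0.01, range -0.095 to 0.01), Abcg1 without control replicates 3, 4 or 5 (-0.02 each, range -0.02 to 0.155) and with Eif2s3y (-0.11), and in other probe sets of Fdft1 (0.18 and 0.04), Scap (0.10), Mbtps1 (-0.12) and Npc2 (-0.02 and -0.04). The cause was not tested. The values' single decimal and the number of arrays limit what can be told apart.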
